A study of Mus musculus with 6 samples.

Results

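The genes described here are 52 genes of the actin, myosin and intermediate filament cytoskeleton, chosen by symbol from a list of actin isoforms, actin-binding proteins, motors, signalling genes that act on actin and intermediate filament proteins. All 52 had a single row among the 55951 genes of the deposited expression table, and all passed the filter on low values, a mean of at least 1 FPKM (reads scaled to transcript length and library size). They fall into 8 roles, given below. RNA came from spleen cells labelled as effector-memory CD8+ T cells. That name rests on the sort, and markers of other cell types were also read, as given below. The mice were C57BL/6 with the genotype S100A4-EGFP (S100A4WT-EGFP in the growth notes), in an asthma model induced with ovalbumin (OVA). In these mice EGFP reports the calcium-binding protein S100A4. Cells sorted as CD3+CD8+CD4-CD44+CD62L-EGFP- formed the S100A4-negative group and cells sorted as CD3+CD8+CD4-CD44+CD62L-EGFP+ the S100A4-positive group, with 3 libraries each. Reporter, strain, asthma model and tissue are shared by both groups, no healthy mice are among them, and the labels do not give the age or sex of the mice. Nothing in the labels ties the 3 samples of a group to separate animals. The p-values therefore measure the spread between these samples alone, which may be technical.

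Actin is held in the cell as monomers and as filaments. Profilin, cofilin and thymosins control the supply and turnover of monomers, the Arp2/3 complex branches new filaments from old ones, and formins elongate unbranched filaments. WASP-family proteins, switched on by Cdc42 or Rac, activate Arp2/3, while RhoA drives contraction by non-muscle myosin II. In T cells and in phagocytes this machinery moves the cell, shapes the synapse with a partner cell and drives engulfment. Vimentin filaments and the nuclear lamins, which are intermediate filaments, set the stiffness of the cell body and the nucleus.

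The libraries held 14925260 to 18660188 reads recovered from the deposited values, and the least covered of the 52 genes had 68 reads in its lowest library. S100a4 itself was read at very low levels, from listed at 0 to 0.405 FPKM in S100A4-negative and from 1.27 to 4.02 FPKM in S100A4-positive libraries, and no library had more than 25 reads of it. Markers of T cells, which both sorts selected, were lower in the S100A4-positive libraries and markers of macrophages higher. Of 10 T cell and sort-gate genes, 9 fell and Cd44 rose there, and their summed level was 1908 to 2267 FPKM in S100A4-negative and 722 to 973 FPKM in S100A4-positive libraries. Without Cd44, which made up most of the latter, the other 9 genes summed to 1760 to 2128 and 260.1 to 389 FPKM. All 18 monocyte and macrophage markers rose, and their summed level went from a range of 687 to 989 FPKM to one of 9568 to 10375 FPKM. Summed B cell markers were at 7040 to 12344 and 1410 to 1506 FPKM, and summed neutrophil markers at 3278 to 4848 and 408 to 1702 FPKM, with all 7 and all 8 genes lower. Ighm made up most of the B cell sum, with means of 8931.5 ± 2468 and 1186.7 ± 121 FPKM. Markers of dendritic cells summed to 47.3 to 82.8 and 354 to 490.0 FPKM, and those of platelets to 21.2 to 30.8 and 13.96 to 15.2 FPKM. Most of the dendritic cell sum was Itgax, with means of 43.8 ± 7.64 and 343 ± 55.6 FPKM. Of the 7 dendritic cell genes 6 rose and Siglech did not pass. Among platelet genes only Itga2b was called, falling from 13.3 ± 4.61 to 3.02 ± 0.382 FPKM, and 2 did not pass. Pf4, too low to be tested, was higher in every S100A4-positive library. Plasma cell markers summed to 1184 to 2648 and 277 to 581 FPKM. Jchain, with means of 1631.8 ± 688 and 167 ± 138 FPKM, made up most of this sum in the S100A4-negative libraries. Natural killer cell markers summed to 4.54 to 9.35 and 1.16 to 3.33 FPKM, red blood cell markers to 49.6 to 255.0 and 47.5 to 227 FPKM, and fibroblast and endothelial markers to 51.1 to 58.3 and 37.3 to 40.1 FPKM. Most of that last sum is Pecam1, which fell, and the other 6 genes of the list, among them Kdr, which rose, summed to 1.67 to 2.38 and 5.53 to 9.02 FPKM. Ncr1 of natural killer cells and Col3a1 of fibroblasts were the only listed markers at 0 in some library, and none was at 0 in all. The part of these cell types in the differences below was not tested. In bulk RNA, fewer cells of a type and less RNA per cell cannot be told apart.

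Cytoskeletal genes were called higher more often than lower in S100A4-positive libraries: 27 of 52 rose, 6 fell and 19 did not pass the test (limma, Benjamini-Hochberg adjusted p under 0.05 over all 13241 genes tested). Over all tested genes 62.3% were called, 19.0% higher and 43.4% lower. The median log2 fold change of the 52 genes was 0.38 on the log2(FPKM + 1) scale, against -0.36 for all tested genes. Among the 1346 genes with a mean of at least 100 FPKM, a level that many of these genes share, 31.5% were called higher and 36.1% lower, with a median of -0.13. In 28 of the 52 genes all S100A4-positive libraries lay above all S100A4-negative ones and in 7 below, compared with 70.0% of all tested genes in either direction, 20.9% higher and 49.1% lower. Together the 52 genes took 2.55%, 2.76% and 2.82% of summed FPKM in the S100A4-negative libraries and 4.22%, 4.71% and 4.55% in the S100A4-positive ones, which did not overlap (exact two-sided permutation p = 0.1, the smallest that 3 against 3 allows).

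Most of the rises did not depend on how libraries were scaled, whereas most of the falls did. With FPKM as deposited, 30.4% of all called genes were higher. After median-of-ratios rescaling, which moved the median of all tested genes from -0.36 to -0.03, 52.4% were, and after quantile normalization, with a median of -0.16, 42.0% were. Of the 52 genes, 37 were then called higher and 1 lower with the first rescaling (27.3% and 24.8% of all genes), and 25 higher and 3 lower with the second (22.9% and 31.6%). The same 24 genes were called higher under all 3 scalings, Myl12b was the 1 gene called lower in all of them, 9 passed in none, and 18 changed their call. In the 6 fits that left out 1 library each, 21 of those 24 and Myl12b kept their call every time. With no filter on low values 19 of the 52 genes were called higher and 3 lower. Of all 28627 genes then tested, 2948 were called higher and 5968 lower. Actb, Actg1 and Tmsb4x were among the 11 of the 52 genes no longer called. Fold changes below are S100A4-positive minus S100A4-negative with FPKM as deposited, levels are FPKM in libraries 1, 2 and 3 of a group in that order, and means carry the SD over n = 3 libraries.

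**Figure D1:**
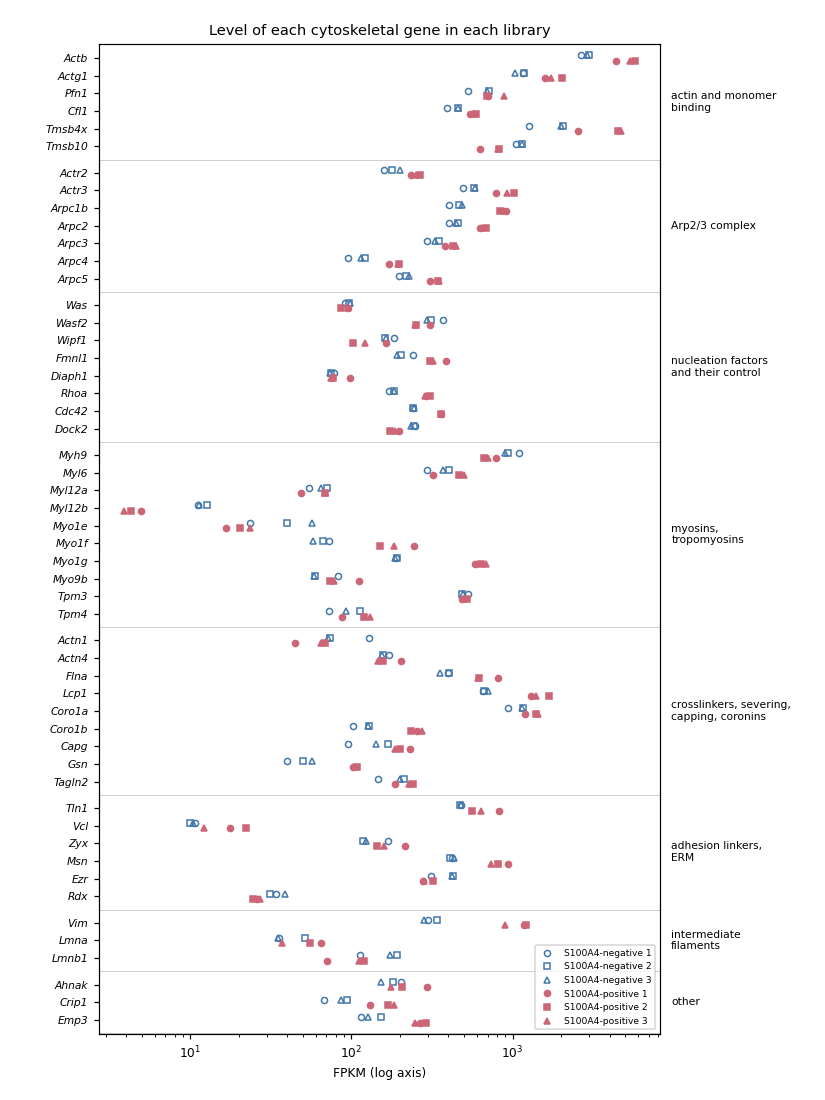
Level of each of the 52 genes in each library, in FPKM on a log axis, ordered by role. Open symbols are the 3 S100A4-negative and filled symbols the 3 S100A4-positive libraries; Myo1g, Vim and Lcp1 show wide gaps between the groups, while Tpm3, between 484 and 529 FPKM in every library, shows none.

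Actin itself was among the genes that rose. Actb, which encodes beta-actin (ENSMUSG00000029580, chromosome 5, 142903115 to 142906754, - strand of mm10), was the most abundant of the 52 genes in both groups, at 2676, 2979 and 2900.0 FPKM in the S100A4-negative libraries and 4385, 5717 and 5395 FPKM in the S100A4-positive ones. Every S100A4-positive library lay above every S100A4-negative one, with a log2 fold change of 0.85 (limma, SE 0.20, adjusted p = 0.00853). Actg1, the gamma-actin gene, was at 1159, 1170.5 and 1042 FPKM in the S100A4-negative libraries and 1582, 2037 and 1743 FPKM in the S100A4-positive ones, a difference of 0.66 (limma, SE 0.17, adjusted p = 0.0106). These isoforms kept a similar balance: Actb made up 69.8%, 71.8% and 73.6% of their summed FPKM in the S100A4-negative libraries and 73.5%, 73.7% and 75.6% in the S100A4-positive ones, and these ranges overlapped.

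The thymosins, which hold actin as monomers, moved apart. Tmsb4x, on the X chromosome, was at 1268, 2051 and 1994 FPKM in the S100A4-negative libraries and 2554, 4522 and 4709.6 FPKM in the S100A4-positive ones. In each group library 1 was far below the other two, and the groups still did not overlap. Its log2 fold change was 1.13 (limma, SE 0.31, adjusted p = 0.016), a call that was lost without S100A4-negative replicate 1, S100A4-positive replicate 2 or S100A4-positive replicate 3. Tmsb10, which has the same known role, was at 1048, 1140.0 and 1144 FPKM in the S100A4-negative libraries and 628, 829 and 816 FPKM in the S100A4-positive ones and lower in every S100A4-positive library. It fell by 0.56 (limma, SE 0.16, adjusted p = 0.0192), but with median-of-ratios rescaling its difference was -0.18 and did not pass, and the call was also lost without S100A4-negative replicate 2 or 3. Cfl1, which encodes the filament-severing protein cofilin, went from 437 ± 40.5 to 571 ± 23.1 FPKM and rose by 0.39 (limma, SE 0.13, adjusted p = 0.0338), with a call that was lost after quantile normalization and without any single library other than S100A4-positive replicate 1. Pfn1, profilin, had the smallest difference of this role, with 530.0, 719 and 698 FPKM in the S100A4-negative libraries and 700.0, 698 and 891 FPKM in the S100A4-positive ones. Its groups overlapped and the difference of 0.24 did not pass (limma adjusted p = 0.284). After median-of-ratios rescaling it was 0.61 and called higher.

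A sequence feature shared by some of the 52 genes lies before their start sites. The CArG box is the short DNA element bound by serum response factor, whose partners of the MRTF family sense the amount of free actin monomer. Windows of 300 bases, from 250 before to 50 after each annotated start (RefSeq, GRCm38.p6), were at hand for 48 of the 52 genes, and the consensus of the CArG box, CC, then any 6 bases of A or T, then GG, which reads the same on both strands, was found for 5 of these genes, 10.4%. It was found in 1.63% of all 32851 windows and for 1.48% of the 9328 tested genes with a window. The 5 genes were Actg1, Vcl and Arpc4, which were called higher, Myo1e, which was called lower, and Myl6, which did not pass. These are calls with FPKM as deposited. Those of Vcl and Myo1e were each lost in 5 of the 6 fits that left out 1 library, and that of Myo1e with both rescalings. Bases before the start site are shown for the 4 called genes, 5′ to 3′ in the direction of the gene, with the CArG box in capitals. With FPKM as deposited, these genes share the element but not the direction of their difference.
Actg1 (chr11:120348496-120348745, - strand): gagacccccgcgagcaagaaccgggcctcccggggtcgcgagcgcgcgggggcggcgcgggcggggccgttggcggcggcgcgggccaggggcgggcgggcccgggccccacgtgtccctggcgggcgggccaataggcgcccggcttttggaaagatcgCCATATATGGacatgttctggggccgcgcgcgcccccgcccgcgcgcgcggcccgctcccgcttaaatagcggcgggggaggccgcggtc
Vcl (chr14:20929148-20929397, + strand): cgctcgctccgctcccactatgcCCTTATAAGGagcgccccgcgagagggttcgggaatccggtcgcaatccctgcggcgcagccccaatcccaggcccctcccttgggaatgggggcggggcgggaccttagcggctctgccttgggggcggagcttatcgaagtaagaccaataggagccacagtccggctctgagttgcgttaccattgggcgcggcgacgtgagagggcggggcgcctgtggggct
Arpc4 (chr6:113377863-113378112, + strand): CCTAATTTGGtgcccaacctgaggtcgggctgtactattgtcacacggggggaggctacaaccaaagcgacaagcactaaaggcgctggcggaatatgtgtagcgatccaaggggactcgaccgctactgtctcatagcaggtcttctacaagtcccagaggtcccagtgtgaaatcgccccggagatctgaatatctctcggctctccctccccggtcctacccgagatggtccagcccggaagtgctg
Myo1e (chr9:70207100-70207349, + strand): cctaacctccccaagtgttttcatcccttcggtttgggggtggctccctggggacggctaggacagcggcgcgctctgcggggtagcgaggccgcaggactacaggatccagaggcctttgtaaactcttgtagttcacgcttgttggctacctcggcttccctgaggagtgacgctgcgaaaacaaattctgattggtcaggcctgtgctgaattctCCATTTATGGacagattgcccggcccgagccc
The box began 90 bases before the start site of Actg1, 227 before that of Vcl, 250 before that of Arpc4, at the very edge of the window, and 32 before that of Myo1e. In Myl6 it began 50 bases before the start site and read CCTTATATGG. These are RefSeq starts. The bases before that of Myl6, chr10:128493010-128493259, lie inside the gene as GENCODE M21 gives it, 128490860 to 128494145 on the - strand. Some of the bases shown for Actg1 also lie inside its GENCODE gene, which ends at 120348542. A match of these letters is a description of the window and not a bound site.

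All 7 listed genes of the Arp2/3 complex rose, where 19.0% of all tested genes did, and in all 7 the groups did not overlap. Arpc1b, a subunit that holds the complex together and the form common in blood cells, was at 403, 467 and 484 FPKM in the S100A4-negative libraries and 906, 833 and 883 FPKM in the S100A4-positive ones, with no overlap and a log2 fold change of 0.96 (limma, SE 0.14, adjusted p = 9.23e-04). Arpc4, which forms the core of the complex with Arpc2, was at 95.2, 122 and 115 FPKM in the S100A4-negative libraries and 172, 198 and 195 FPKM in the S100A4-positive ones and rose by 0.77 (limma, SE 0.13, adjusted p = 0.0023). Actr3, the actin-related protein Arp3, was at 491, 574 and 586 FPKM in the S100A4-negative libraries and 789, 1015 and 918 FPKM in the S100A4-positive ones, with the lowest S100A4-positive library well above the highest S100A4-negative one. Its difference was 0.72 (limma, SE 0.16, adjusted p = 0.00591). Arpc5, at the edge of the complex, went from 215 ± 16.2 to 333 ± 24.3 FPKM and rose by 0.63 (limma, SE 0.12, adjusted p = 0.0036).

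The other subunits rose less. Arpc2 and Actr2, which encodes Arp2, had differences of 0.58 and 0.48, with means going from 436 ± 29.8 to 652 ± 28.2 FPKM for Arpc2 and from 181 ± 20.7 to 251 ± 16.4 FPKM for Actr2. Arpc3 had the smallest difference of the complex and was at 296, 349 and 330.4 FPKM in the S100A4-negative libraries and 379.5, 428 and 445 FPKM in the S100A4-positive ones. The groups lay close together without overlap, and the rise of 0.36 (limma, SE 0.13, adjusted p = 0.0445) was lost after quantile normalization and without any single library other than S100A4-positive replicate 1. The complex as a whole took 0.288%, 0.322% and 0.342% of summed FPKM in S100A4-negative and 0.533%, 0.569% and 0.553% in S100A4-positive libraries. Those shares are made of the 7 genes and are a description of them.

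Genes that start filaments or switch the machinery on went different ways. The formin gene Fmnl1, a filament-elongating factor of blood cells, was at 241, 203 and 191 FPKM in the S100A4-negative libraries and 387, 307 and 319.5 FPKM in the S100A4-positive ones and rose by 0.67 (limma, SE 0.15, adjusted p = 0.00637). Rhoa, the GTPase that drives contraction, was at 170.5, 184 and 184 FPKM in the S100A4-negative libraries and 289, 307 and 285 FPKM in the S100A4-positive ones, with a difference of 0.71 (limma, SE 0.11, adjusted p = 0.00129). Cdc42, the GTPase that activates WASP, was very even within each group, at 242, 243 and 245 FPKM in the S100A4-negative libraries and 358, 362 and 362 FPKM in the S100A4-positive ones. The gap between groups was far wider than the spread within them, and the difference was 0.57 (limma, SE 0.11, adjusted p = 0.00304).

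Of the remaining genes of this role, none was called higher with FPKM as deposited. Dock2, the exchange factor that activates Rac in lymphocytes, was at 248, 246 and 236 FPKM in the S100A4-negative libraries and 198, 174 and 186 FPKM in the S100A4-positive ones, lower in every S100A4-positive library. It fell by 0.39 (limma, SE 0.11, adjusted p = 0.0174) with FPKM as deposited, but its difference was -0.01 and did not pass after median-of-ratios rescaling, and the call was lost without either replicate 2 or without S100A4-positive replicate 3. Was, which encodes the WASP protein mutated in Wiskott-Aldrich syndrome, had the smallest difference of this role at 91.6, 96.7 and 98.1 FPKM in the S100A4-negative libraries and 94.7, 86.6 and 95.6 FPKM in the S100A4-positive ones. These ranges overlapped and the difference of -0.05 did not pass (limma adjusted p = 0.695), although after median-of-ratios rescaling it was called higher with 0.33. Wipf1, the partner that protects WASP from breakdown, had means of 170.4 ± 12.5 and 129.6 ± 31.6 FPKM, and its difference of -0.42 did not pass (limma adjusted p = 0.0777), but passed without S100A4-positive replicate 1. Wasf2, a subunit of the WAVE complex that acts below Rac, had means of 325 ± 40.7 and 269 ± 32.1 FPKM, with a difference of -0.27 that did not pass and that turned to 0.11 after median-of-ratios rescaling. Diaph1, a formin activated by RhoA, had means of 75.5 ± 1.80 and 83.4 ± 12.7 FPKM and a difference of 0.13 that did not pass with FPKM as deposited and did, at 0.51, with median-of-ratios rescaling.

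**Figure D2:**
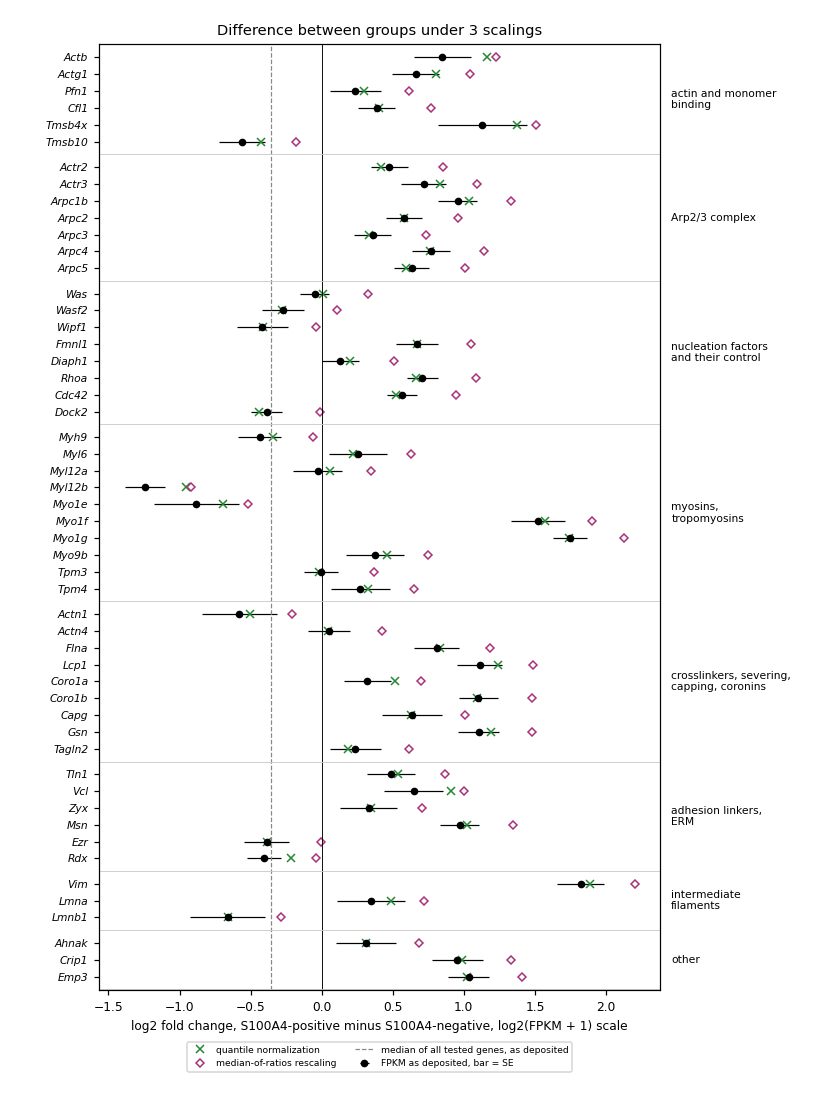
Log2 fold change of each of the 52 genes, with positive values where S100A4-positive libraries were higher, on the log2(FPKM + 1) scale. Black points with SE bars are FPKM as deposited, crosses are after quantile normalization and diamonds after median-of-ratios rescaling, which shifts the genes to the right; the dashed line marks the median of all tested genes as deposited, -0.36, and Was, Wasf2, Tpm3 and Myl12a change sign between scalings.

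Class I myosins, single-headed motors that tie membrane to actin, held both some of the largest rises and a fall. Myo1g, a myosin of blood cells (ENSMUSG00000020437, chromosome 11, 6506548 to 6520965, - strand), was at 189.5, 191 and 185 FPKM in the S100A4-negative libraries and 589, 637 and 684 FPKM in the S100A4-positive ones. Its S100A4-positive libraries all lay far above the S100A4-negative ones, with a log2 fold change of 1.75 (limma, SE 0.12, adjusted p = 4.77e-05). Myo1f, a related motor of myeloid and other blood cells, was at 72.3, 66.95 and 57.4 FPKM in the S100A4-negative libraries and 245, 151 and 184 FPKM in the S100A4-positive ones and rose by 1.52 (limma, SE 0.19, adjusted p = 5.39e-04). Myo1e, the third listed member, was at 23.5, 39.9 and 56.8 FPKM in the S100A4-negative libraries and 16.7, 20.5 and 23.3 FPKM in the S100A4-positive ones. The highest S100A4-positive library lay just under the lowest S100A4-negative one, and the S100A4-negative libraries differed widely among themselves. Its fall of 0.88 (limma, SE 0.30, adjusted p = 0.035) was lost with median-of-ratios and quantile scaling and without any single library other than S100A4-negative replicate 1.

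Within these 3 motors, Myo1e made up 8.23%, 13.4% and 18.96% of summed FPKM in the S100A4-negative and 1.96%, 2.54% and 2.62% in the S100A4-positive libraries. Myo1g made up 66.4%, 64.1% and 61.9% and 69.2%, 78.8% and 76.7%. A share within a library is untouched by a scaling factor for that library, and for both genes the groups did not overlap (exact two-sided permutation p = 0.1 for each, the smallest possible). Myo9b, an unconventional myosin, had means of 66.95 ± 13.9 and 87.6 ± 20.4 FPKM and a difference of 0.38 that did not pass (limma adjusted p = 0.141) and that was 0.75 and called higher after median-of-ratios rescaling.

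No gene of non-muscle myosin II was called higher with FPKM as deposited. Myh9, its heavy chain, was at 1092, 944 and 905 FPKM in the S100A4-negative libraries and 793, 669.7 and 707 FPKM in the S100A4-positive ones and fell by 0.44 (limma, SE 0.15, adjusted p = 0.0357). The groups did not overlap, but the difference was -0.06 and did not pass after median-of-ratios rescaling, and the call was lost without any single library other than S100A4-positive replicate 1. Of its light chains, Myl12b was at 11.2, 12.8 and 11.2 FPKM in the S100A4-negative libraries and 4.95, 4.29 and 3.91 FPKM in the S100A4-positive ones, a fall of 1.25 (limma, SE 0.14, adjusted p = 3.58e-04) that was called under every setting tried. Myl12a, the near-identical neighbour of Myl12b on chromosome 17, was at 54.3, 70.2 and 64.6 FPKM in the S100A4-negative libraries and 48.7, 69.05 and 69.01 FPKM in the S100A4-positive ones, with overlapping groups and a difference of -0.03 (limma adjusted p = 0.9), or 0.35 after median-of-ratios rescaling. Transcripts of Myl12a and Myl12b match over up to 740 bases at 95% identity or more, and 19.9% and 26.7% of their exon bases are shared with other annotated genes, so how reads were divided between them is uncertain. Myl6, the essential light chain, had means of 356 ± 54.4 and 429 ± 93.01 FPKM and a difference of 0.25 that did not pass (limma adjusted p = 0.307), but passed without S100A4-positive replicate 1 and, at 0.63, after median-of-ratios rescaling.

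Of the tropomyosins, which coat filaments and steer myosin, Tpm3 and Tpm4 were not called with FPKM as deposited. Tpm3 had the smallest change of the 52 genes, at 529, 486 and 496 FPKM in the S100A4-negative libraries and 484, 524 and 496 FPKM in the S100A4-positive ones, a difference of -0.00640 (SE 0.12, limma adjusted p = 0.966). After median-of-ratios rescaling it was 0.37, still without a call. Tpm4 had means of 92.8 ± 20.2 and 112 ± 22.4 FPKM and a difference of 0.27 (limma adjusted p = 0.286), which was 0.65 and called higher after median-of-ratios rescaling. A processed copy, Tpm3-rs7, shares sequence with Tpm3 and had a mean of 64.2 FPKM over the 6 libraries, 12.8% of the level of Tpm3.

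Of 9 genes that bundle, sever or cap filaments, 5 rose and none fell, against 19.0% and 43.4% of all tested genes. Lcp1, L-plastin, the filament-bundling protein of white blood cells, was at 654, 666 and 700.0 FPKM in the S100A4-negative libraries and 1298, 1693 and 1402 FPKM in the S100A4-positive ones and rose by 1.11 (limma, SE 0.16, adjusted p = 8.99e-04). Gsn, gelsolin, which severs and caps filaments under calcium control, was at 39.9, 50.00 and 57.2 FPKM in the S100A4-negative libraries and 102, 109 and 106 FPKM in the S100A4-positive ones, a difference of 1.10 (limma, SE 0.15, adjusted p = 6.95e-04). Coro1b, a coronin that helps to disassemble branched networks, was at 102, 129 and 126 FPKM in the S100A4-negative libraries and 255, 235 and 276 FPKM in the S100A4-positive ones, with no overlap and a rise of 1.10 (limma, SE 0.14, adjusted p = 5.06e-04). Flna, filamin A, which crosslinks filaments and anchors integrins, was at 396, 402 and 354 FPKM in the S100A4-negative libraries and 809, 617 and 609 FPKM in the S100A4-positive ones, with library 1 the highest of the S100A4-positive group, and rose by 0.81 (limma, SE 0.16, adjusted p = 0.00357).

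The remaining genes of this role were closer between groups. Capg, a macrophage-type capping protein, was at 95.8, 168 and 142 FPKM in the S100A4-negative libraries and 231, 199 and 187 FPKM in the S100A4-positive ones and rose by 0.63 (limma, SE 0.21, adjusted p = 0.033). That call was lost without any single library other than S100A4-negative replicate 2, and without S100A4-negative replicate 1 the difference was 0.41. Coro1a, the coronin of blood cells and the fifth most abundant of the 52 genes in both groups, had means of 1079 ± 121 and 1346 ± 131 FPKM. Its groups did not overlap, but the difference of 0.32 did not pass (limma adjusted p = 0.126) with FPKM as deposited and did with both rescalings, at 0.70 after median-of-ratios rescaling. Actn1 and Actn4, the alpha-actinins that crosslink filaments at adhesions, were not called. Actn4 had the smallest difference of this role and was at 172, 157 and 154 FPKM in the S100A4-negative libraries and 203, 156 and 146 FPKM in the S100A4-positive ones (difference 0.05, limma adjusted p = 0.78). Actn1 was at 129, 73.3 and 71.2 FPKM in the S100A4-negative libraries and 44.4, 68.5 and 65.2 FPKM in the S100A4-positive ones, with no overlap and a difference of -0.58 (limma adjusted p = 0.0918), and S100A4-negative library 1 stood far above the rest. Tagln2, transgelin 2, had means of 186 ± 35.8 and 218 ± 28.2 FPKM and did not pass (limma adjusted p = 0.28), with a difference of 0.24 that was 0.61 and called higher after median-of-ratios rescaling.

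The ERM proteins, which tie the membrane to the actin cortex, changed in their proportions. Msn, moesin, was at 424, 412 and 432 FPKM in the S100A4-negative libraries and 940.1, 818 and 740.5 FPKM in the S100A4-positive ones and rose by 0.97 (limma, SE 0.14, adjusted p = 9.90e-04). Ezr, ezrin, was at 313, 425 and 422 FPKM in the S100A4-negative libraries and 277, 321 and 283 FPKM in the S100A4-positive ones. Only 1 S100A4-positive library lay above the lowest S100A4-negative one, and the difference of -0.39 did not pass (limma adjusted p = 0.0666), but passed without S100A4-negative replicate 1; it was -0.00790 after median-of-ratios rescaling. Rdx, radixin, was at 34.1, 31.1 and 38.5 FPKM in the S100A4-negative libraries and 25.9, 24.4 and 26.98 FPKM in the S100A4-positive ones and fell by 0.41 (limma, SE 0.12, adjusted p = 0.0214), a call that was lost with both rescalings and when S100A4-negative replicate 1, S100A4-negative replicate 3 or S100A4-positive replicate 2 was left out. As a share of the 3 genes, Msn went from 54.97%, 47.5% and 48.4% in the S100A4-negative libraries to 75.6%, 70.3% and 70.5% in the S100A4-positive ones, and Ezr from 40.6%, 48.95% and 47.2% to 22.3%, 27.6% and 26.9%. Moesin and ezrin were close in S100A4-negative libraries 2 and 3, with ezrin ahead in library 2, and moesin was far ahead in every S100A4-positive library.

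Linkers between integrins and actin rose or did not pass. Tln1, talin 1, which activates integrins, was at 482, 471 and 476 FPKM in the S100A4-negative libraries and 827, 564 and 642 FPKM in the S100A4-positive ones, with the S100A4-negative libraries close together and those of the other group spread widely. It rose by 0.49 (limma, SE 0.17, adjusted p = 0.0357), a call that was lost after quantile normalization and without any S100A4-negative library or S100A4-positive replicate 3. Vcl, vinculin, which reinforces talin, was the second lowest of the 52 genes, at 10.8, 9.95 and 10.5 FPKM in the S100A4-negative libraries and 17.8, 22.04 and 12.2 FPKM in the S100A4-positive ones, and rose by 0.65 (limma, SE 0.21, adjusted p = 0.0278), a call that was lost without any single library other than S100A4-positive replicate 3. Of its exon bases, 25.5% also belong to Ap3m1 on the opposite strand, and whether counting used strand is not stated. Zyx, zyxin, a protein of mature adhesions, had the smallest difference of these linkers, at 168, 118 and 123 FPKM in the S100A4-negative libraries and 215, 143 and 158 FPKM in the S100A4-positive ones, with overlapping groups (difference 0.33, limma adjusted p = 0.185), and was called higher at 0.71 after median-of-ratios rescaling.

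Vim, vimentin, the intermediate filament protein of white blood cells and connective tissue, had the largest rise of all 52 genes (ENSMUSG00000026728, chromosome 2, 13573927 to 13582826, + strand). Its level was 298, 342 and 280.3 FPKM in the S100A4-negative libraries and 1173, 1206 and 900.0 FPKM in the S100A4-positive ones. Even the lowest S100A4-positive library lay far above the highest S100A4-negative one, and the log2 fold change was 1.82 (limma, SE 0.17, adjusted p = 1.46e-04). Ordered by mean level, Vim moved from place 21 of the 52 genes in the S100A4-negative group to place 6 in the S100A4-positive group, while Tmsb10 went from place 4 to 11 and Myh9 from place 6 to 12. Actb, Tmsb4x and Actg1 took the first 3 places in both.

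Of the lamins, intermediate filaments of the nucleus, Lmna and Lmnb1 were not called one by one, while Lmnb2 fell (limma adjusted p = 0.00709). Lmna, which encodes lamins A and C, was at 35.3, 51.6 and 34.9 FPKM in the S100A4-negative libraries and 64.9, 55.2 and 37.2 FPKM in the S100A4-positive ones, with overlapping groups and a difference of 0.35 (limma adjusted p = 0.232). Lmnb1, lamin B1, was at 114, 192 and 174 FPKM in the S100A4-negative libraries and 70.3, 120.1 and 112 FPKM in the S100A4-positive ones, also with an overlap and a difference of -0.66 (limma adjusted p = 0.0597), which passed without S100A4-negative replicate 1. Their balance separated the groups: Lmna made up 22.4%, 20.4% and 15.9% of the summed FPKM of Lmna, Lmnb1 and Lmnb2 in the S100A4-negative libraries and 46.5%, 30.98% and 23.9% in the S100A4-positive ones. The S100A4-positive libraries differed widely in it, and the lowest of them lay just above the highest S100A4-negative one.

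Among the genes outside these roles, Crip1 and Emp3 rose. Crip1, a small LIM-domain protein, was at 67.4, 93.5 and 86.4 FPKM in the S100A4-negative libraries and 130.0, 169 and 184 FPKM in the S100A4-positive ones and rose by 0.95 (limma, SE 0.18, adjusted p = 0.00312). Emp3, an epithelial membrane protein family member, was at 114, 152 and 127 FPKM in the S100A4-negative libraries and 268, 289 and 248 FPKM in the S100A4-positive ones and rose by 1.03 (limma, SE 0.14, adjusted p = 7.94e-04). Ahnak, a very large scaffold protein under the membrane, was at 203, 182 and 152 FPKM in the S100A4-negative libraries and 296, 207 and 175 FPKM in the S100A4-positive ones, with overlapping groups and a difference of 0.31 (limma adjusted p = 0.231), or 0.69 and called higher after median-of-ratios rescaling. Library 1 was the highest of its group for Ahnak in both groups.

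Closely related genes were compared by their shares within each library. In all, 34 shares in 15 families were compared, and in 26 of them the groups did not overlap, beside 70.0% of the levels of all tested genes. In the 11 families of 2 genes both shares mirror each other, so the 26 are not separate counts, and 12 of the 15 families had a share whose groups did not overlap. None can pass a threshold of 0.05, since the smallest exact permutation p is 0.1, or 0.131 after Benjamini-Hochberg adjustment over the 34. Rac1 and Rac2 are the GTPases that drive protrusion, Rac2 being the form of blood cells. Rac1 made up 17.9%, 17.1% and 17.6% of their sum in the S100A4-negative libraries and 35.4%, 32.9% and 36.6% in the S100A4-positive ones, an exchange in which Rac1 rose by 0.46 and Rac2 fell by 0.87 (limma adjusted p = 0.0165 and 0.00119). The Rac1 call was lost without S100A4-negative replicate 2 or 3. Of the exon bases of Rac1, 51.4% are shared with other annotated genes, and of those of Rac2 0.0%. Whether counting used strand is not stated, so how reads were assigned to Rac1 is uncertain. Tmsb4x went from 60.9% ± 5.29 to 83.3% ± 2.68 of the thymosin sum, with no overlap.

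Alternative subunits of Arp2/3 shifted in the same direction within both pairs. Arpc1b went from 86.2% ± 0.449 to 92.6% ± 0.357 of Arpc1a and Arpc1b, and Arpc5 from 81.5% ± 2.37 to 91.7% ± 1.01 of Arpc5 and Arpc5l (SD, n = 3). Arpc1a had means of 72.2 ± 8.09 and 69.8 ± 5.39 FPKM and did not pass (limma adjusted p = 0.771), and Arpc5l fell from 49.3 ± 11.1 to 30.2 ± 4.31 FPKM (limma adjusted p = 0.0177), a call that was lost when S100A4-negative replicate 2, S100A4-negative replicate 3 or S100A4-positive replicate 2 was left out. Was went from 74.4% ± 3.66 to 81.8% ± 2.05 of Was and Wasl, the gene for the broadly made N-WASP. Coro1a, by contrast, went down from 83.96% ± 0.693 to 75.04% ± 3.99 of the 3 type I coronins as Coro1b and Coro1c took more. Myh9 made up nearly all of Myh9 and Myh10, 99.8%, 99.8% and 99.7% in S100A4-negative and 99.7%, 99.6% and 99.6% in S100A4-positive libraries.

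**Figure D3:**
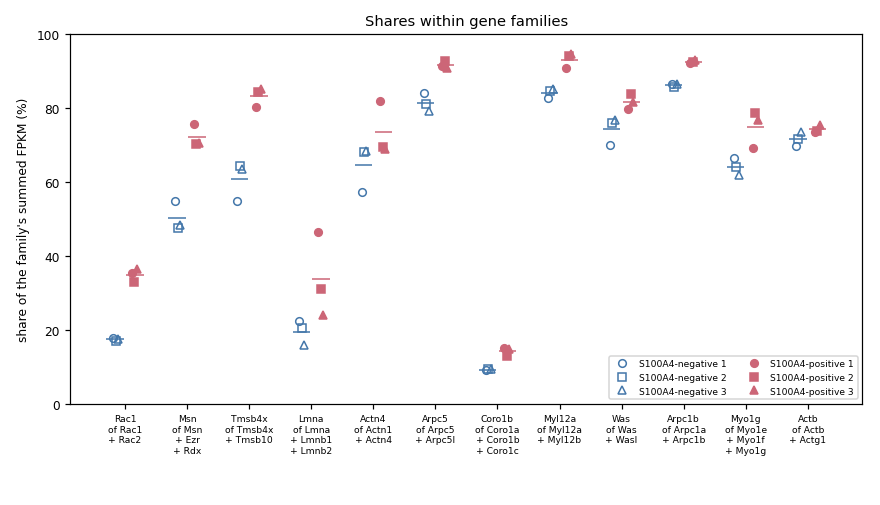
Share of 12 genes in the summed FPKM of their family, in percent, for each library. Open symbols are S100A4-negative, filled symbols S100A4-positive libraries and bars the group means; Rac1, Msn and Tmsb4x show the widest gaps, while the shares of Actb overlap between groups.

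The wider cytoskeleton was followed with 119 further genes listed by function, of which 118 had a row and 98 passed the filter. Of these 98, 44 rose, 25 fell and 29 did not pass, beside 19.0% and 43.4% of all tested genes, with a median log2 fold change of 0.33. After median-of-ratios rescaling 56 were called higher and 14 lower, beside 27.3% and 24.8% of all tested genes. Among 21 further nucleation genes, 12 rose and 5 fell, to be read against the same shares. Fmnl2, a formin, rose from 2.14 ± 0.217 to 22.9 ± 2.98 FPKM (difference 2.92, limma adjusted p = 1.76e-05), and the WAVE complex genes Abi3 and Cyfip1 rose by 1.95 and 1.69. Of the exon bases of Abi3, 75.8% are shared with other annotated genes. Wipf3, Nckap1 and Diaph3 fell by 1.40, 1.30 and 1.05, all from low levels. Their means went from 2.36 ± 0.593, 7.43 ± 2.66 and 5.37 ± 1.30 FPKM to 0.270 ± 0.185, 2.31 ± 0.147 and 2.085 ± 0.765 FPKM. The 1 added to FPKM makes differences at such levels smaller, and Wipf3 had 8 reads in its lowest library. Nckap1 and Nckap1l are alternative WAVE subunits, and Nckap1l, the form of blood cells, rose from 84.9 ± 6.70 to 116 ± 11.2 FPKM (limma adjusted p = 0.0153), a call that was lost without S100A4-positive replicate 3.

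Genes of adhesion and crosslinking held the largest rises of the wider list. Of 20 tested, 12 rose and 5 fell, beside 19.0% and 43.4% of all tested genes. Fscn1, fascin, which bundles filaments in the extensions of dendritic and other cells, was at 12.8, 17.9 and 28.7 FPKM in the S100A4-negative libraries and 122, 434 and 493 FPKM in the S100A4-positive ones, a difference of 3.91 (limma, SE 0.54, adjusted p = 8.06e-04). Its S100A4-positive libraries differed several-fold among themselves and all lay above the other group. Marcks, a membrane-bound actin crosslinker, rose from 19.00 ± 9.10 to 209 ± 18.4 FPKM and Parvb, an integrin-linked adaptor, from 3.30 ± 0.535 to 28.8 ± 13.4 FPKM. Pls1, a plastin of the same family as Lcp1, fell from 7.07 ± 2.19 to 0.767 ± 0.408 FPKM (difference -2.18, limma adjusted p = 3.92e-04). Sptbn1, a spectrin of the membrane skeleton, and Coro7 fell by 1.38 and 0.71.

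Myosin II regulators, capping proteins and nuclear envelope genes complete the list. Of 12 further myosin and tropomyosin genes, 6 rose and 2 fell, where 19.0% and 43.4% of all tested genes did. Myo10, Myo1c and Myo5a rose by 1.76, 0.88 and 0.76, the last losing its call without S100A4-negative replicate 2. Rock1 and Ppp1r12a, a kinase and a phosphatase subunit that set myosin II activity, fell by 0.47 and 0.50. Relative to the median of all tested genes, -0.36, the differences of Rock1 and Ppp1r12a were only -0.11 and -0.14. Of 19 monomer, severing and capping genes, 4 rose, 4 fell and 11 did not pass, a share of rises near the 19.0% of all tested genes and of falls below the 43.4%. Capza2 and Capzb, both chains of the capping protein of filament ends, rose by 1.23 and 0.69, as did the severing factor Dstn by 0.72. The cofilin regulators Limk2 and Ssh2 fell by 1.27 and 0.93, and Pfn2, the second profilin gene, by 0.90. All 5 tested genes of the further intermediate filament and nuclear envelope list fell, where 43.4% of all tested genes did, led by Syne1, Lmnb2 and Sun1 at -1.29, -1.01 and -0.81. The call of Syne2 was lost without S100A4-negative replicate 3. Relative to the median of all tested genes, the differences of Sun2 and Syne2 were only -0.18 and -0.08. Syne1 and Sun1 encode proteins that join the nucleus to the cytoskeleton.

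Within each group, the deviations of the libraries from one another followed transcript length, with library 1 opposite in sign to libraries 2 and 3. Among the 26 shorter of the 52 genes, with an implied length of at most 1511.5 bases (the median), S100A4-negative library 1 was the lowest of its group for 22 genes and S100A4-positive library 1 for 17. Among the 26 longer genes they were the lowest for 8 and 9 and the highest for 13 and 14. Over the 52 genes, the Spearman correlation of length with the deviation of library 1 from the other libraries of its group was 0.47 in the S100A4-negative and 0.50 in the S100A4-positive group, and over all 13241 genes it was 0.13 and 0.14. For libraries 2 and 3 it was -0.51 and -0.34 in the S100A4-negative and -0.38 and -0.44 in the S100A4-positive group over the 52 genes, and -0.13, -0.06, -0.05 and -0.14 over all genes. A gene's 3 deviations within a group sum to 0, so the values of libraries 2 and 3 in part mirror that of library 1. These are correlations across genes, which share libraries and are not independent replicates. The difference between groups followed length less, with a correlation of -0.15 over the 52 genes and 0.06 over all. The cause was not tested. With both libraries numbered 1 left out, an alternative chosen after seeing the data, 26 of the 52 genes rose and 8 fell. Of all 13241 tested genes, 2344 rose and 5311 fell in that fit.

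**Figure D4:**
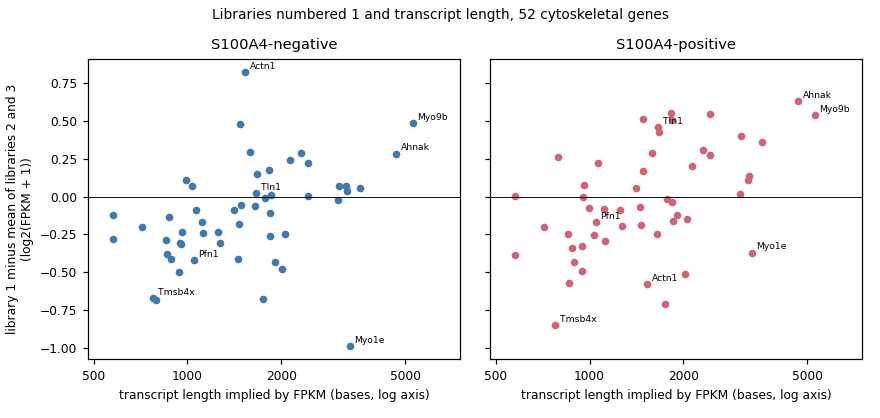
Deviation of library 1 from the mean of libraries 2 and 3 of its group, on the log2(FPKM + 1) scale, against the transcript length implied by FPKM (bases, log axis), for the 52 genes. In both groups short transcripts such as Tmsb4x lie below 0 and long ones such as Ahnak and Myo9b above it, with Actn1 on opposite sides in the 2 groups.

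Levels of different genes can be compared only as far as the lengths behind FPKM allow. For 49 of the 52 genes the implied length was within 1% of the mean length of all annotated transcripts of the gene in GENCODE M21, and in 23 genes the longest annotated transcript was over 2 times the implied length. For Tln1 the implied length was 1662 bases and the longest transcript 8393, and for Myh9 they were 2127 and 7433, so the FPKM of such genes are high for the number of reads. That scale is the same in every library. It enters the fold changes only through the 1 added to FPKM, which matters at low levels. For Myl12b the difference was -1.25 on that scale and -1.42 with voom on recovered reads and library totals. In 15 of the 52 genes another gene in the table matched a transcript over at least 200 bases at 95% identity or more. The copies held over 5% of the gene's level in 4 of them, Myl12a, Myl12b, Tpm3 and Arpc4, the last through 283 bases shared with Ttll3.

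In the authors' deposited table, 30 of the 52 genes are called higher and 1, Myl12b, lower, and 21 are not called, where 11.6% and 7.35% of the 28627 genes with a call are higher and lower. The log2 fold change in the authors' deposited table is 2.22 for Vim, 2.14 for Myo1g, 1.25 for Actb and -1.04 for Myl12b. For Tmsb10 and Myh9 the authors' deposited table gives -0.16 and -0.0556, neither of them called.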

How the data were processed

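Polyadenylated RNA was sequenced from 3 S100A4-negative and 3 S100A4-positive samples. Per the submitters' processing notes, HISAT2 2.1.0, Cufflinks and Cuffnorm are named with build mm10, with no role given, and strand handling is not given in the sources used here. The deposited files give FPKM per gene and library, and per the file headers the authors' comparison table holds mean normalized read counts of both groups (a signal), a log2 fold change, a p-value and an adjusted p-value. Whole reads were recovered from both: all 135018 values above 0 came within 0.02 of a whole read.

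Genes with a mean of at least 1 FPKM (13241) were tested on log2(FPKM + 1) by limma 3.58.1 (R 4.3.3), its prior variance following a trend, with Benjamini-Hochberg adjustment. Shares used exact two-sided permutation tests. Python 3.11.15, numpy 2.4.6, pandas 2.3.3, scipy 1.17.1 and matplotlib 3.10.9 did the rest, with coordinates from GENCODE M21 (GRCm38, the build mm10 names). The steps were run on simulated data in which few genes differed, up or down at random, so that run does not test the choice of scaling. The 52 genes and all lists were chosen with earlier results of these data known. Within a role, library values are given for up to 4 genes with the largest change and for the smallest; of further genes, up to 3 called genes per direction and list with the largest change and no overlap. The genes of 1 list of further genes are not reported here as a group. Other genes named, such as Arpc1a, Arpc5l, Nckap1l and Rac1, and further library values were chosen after their values were seen. Alternatives were another pseudocount, other filters, 2 rescalings, no trend, the replicate number as a block, voom on recovered reads and leaving out libraries.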

Additional observations from a re-analysis of the deposited data

How the results depend on the processing

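Of 52 genes, 27 were higher and 6 lower. The count higher was 19 to 40 over all settings run. Over the same settings 1935 to 3657 of all genes tested were higher, the genes tested differing with the filter. The count lower was 3 without a filter, 3 with quantile normalization and 1 both with median-of-ratios rescaling and with voom on recovered reads and median-of-ratios size factors. Leaving out 1 library at a time gave 2 to 6 lower and 21 to 26 higher. Among all tested genes, 4609 to 5656 were then lower and 2189 to 2512 higher. Over all tested genes, 5741 were lower, but 3286 after median-of-ratios rescaling and 3222 with voom and those size factors, and of the further genes 25 were lower but 14 in both. Was turned to 0.33 in both, and Tpm3 to 0.37 with voom and those factors, each called higher there. A pseudocount of 0.1, a filter of 5 FPKM, limma without trend and voom with library totals changed no call of the 52 genes. With the replicate number as a block, 29 rose and 10 fell, and 8857 genes were called in place of 8253. Of the 8857, 2669 were higher and 6188 lower. The labels do not say that a number marks a shared animal or day. Deviations of same-numbered libraries correlated at 0.38, 0.08 and 0.37, and those of unlike-numbered libraries at -0.38 to 0.15. For each S100A4-negative library the same-numbered S100A4-positive library gave the highest value. Deviations from a group mean sum to 0 within the group, so these values are not independent. The main fit did not pair the samples, and whether some share a source is unknown. Quantile normalization moved the share of Actb in Actb+Actg1 to a difference of 4.59 percentage points and the share of Actg1 in Actb+Actg1 to -4.59, the share of Myh10 in Myh9+Myh10 to 0.180 and the share of Myh9 in Myh9+Myh10 to -0.180, and the share of Coro1b in Coro1a+Coro1b+Coro1c to 3.645. Counted in reads, not per length, the share of Myh10 moved to 0.170 and that of Myh9 to -0.170, the share of Rdx in Msn+Ezr+Rdx to -2.67, the share of Rac1 in Rac1+Rac2 to 20.4 and the share of Rac2 in Rac1+Rac2 to -20.4, and the share of Tln1 in Tln1+Tln2 to 0.0267 and the share of Tln2 in Tln1+Tln2 to -0.0267. The causes were not tested. The number of libraries, 6, limits the precision, and small differences can be missed.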
